A study of Mus musculus with 2 samples.

Results

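The cells described here are the 5% of each library with the highest naive pluripotency score, among AB2.2 mouse embryonic stem cells, wild type or with PHD2 knocked out, on day 4 of differentiation toward mesendoderm. The score of a cell is the mean of log(1 + counts per 10000) over 6 genes, Zfp42, Klf2, Dppa3, Dppa5a, Tdh and Spp1, and cells were scored where at least 1000 genes were detected and at most 10% of unique molecular identifiers (UMIs) came from mitochondrially encoded genes. These limits left 9227 wild type and 7383 knockout cells, of which 461 and 369 were members, 830 of 16610 in all. The members were chosen on measured values, so their levels of the 6 genes describe the choice and are not findings, and every other gene in members against the rest of the library is likewise described without a test.

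Both groups were the same embryonic stem cell line, differentiated for 4 days and measured by droplet single-cell RNA sequencing (10x Genomics), and they differed by the label PHD2 knockout. PHD2, encoded by Egln1, is the oxygen-dependent prolyl hydroxylase that marks hypoxia-inducible factor (HIF) for breakdown. Each group was 1 library, so no difference between the groups has a replicate check and no p-value is given. The sources used here do not say how the knockout was made or whether its cells were 1 clone.

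Naive pluripotency is the state of the preimplantation epiblast and of stem cells kept in leukaemia inhibitory factor, in which factors such as Klf2, Esrrb, Nr0b1 and Tfcp2l1 act beside the general pluripotency factors Pou5f1, Sox2 and Nanog. On differentiation the naive factors are lost first, formative epiblast genes such as Pou3f1 and Fgf5 follow, and streak genes such as T (Brachyury), Mixl1 and Mesp1 mark entry into mesendoderm. Of the 6 scored genes, Zfp42 (Rex1) and Klf2 encode zinc finger factors, Dppa3 (Stella) protects imprinted DNA methylation in the early embryo, Dppa5a encodes an RNA-binding protein of stem cells, Tdh encodes the mitochondrial enzyme that breaks down threonine in mouse stem cells, and Spp1 encodes the secreted protein osteopontin.

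RefSeq promoter entries (GRCm38.p6) were found for 3 of the 6 scored genes, Zfp42, Klf2 and Spp1, and the stretches below are shown because they hold the letters that pluripotency factors are known to prefer in the genes that chose and led these cells. Capitals mark the octamer ATGCAAAT of the Pou5f1 family or its reverse complement in Zfp42 and Spp1, CCCACCC of the Klf family or its reverse complement in Zfp42, and AAGGTCA of Esrrb as its reverse complement in Gpx2, the gene of a glutathione peroxidase that was among the highest in members. Each line runs 5′ to 3′ on the strand of the gene.
Zfp42: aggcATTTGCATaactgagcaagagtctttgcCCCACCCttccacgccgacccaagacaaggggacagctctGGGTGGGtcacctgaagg
Spp1: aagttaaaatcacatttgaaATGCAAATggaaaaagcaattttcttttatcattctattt
Gpx2: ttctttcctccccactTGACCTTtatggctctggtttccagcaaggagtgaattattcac
The Zfp42 stretch is chr8:43307110-43307199 on the minus strand, 190 to 101 bases before the start, and lies outside annotated genes. The Spp1 stretch is chr5:104435962-104436021 on the plus strand, upstream of the second RefSeq start, 230 to 171 bases before it, in an intron of Spp1 and an exon of the unclassified transcript model Gm42793. The Gpx2 stretch is chr12:76795645-76795704 on the minus strand, 150 to 91 bases before the start and in an intron of Fntb. Over both strands of the 250 bases before a start, 1.60% of 32851 RefSeq promoters held the octamer, 15.8% CCCACCC and 4.08% AAGGTCA. Of the 4 promoters of scored genes 2 held the octamer, 2 CCCACCC and 0 AAGGTCA. Of 14 promoters of 12 genes named below as highest in members relative to the rest, 0 held the octamer, 6 CCCACCC and 2 AAGGTCA. These are letter matches in short windows and say nothing about binding.

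Members had a median of 21138 UMIs in the wild type and 24863 in the knockout, against 20711 and 21195 in the rest of each library. Egln1 itself was at 11.8 CPM (95% interval 9.91 to 14.0; CPM is UMIs of a gene per 1000000 UMIs of the group) in wild type members, 18.4 (17.8 to 19.0) in the wild type rest, 6.19 (4.73 to 7.95) in knockout members and 14.1 (13.6 to 14.7) in the knockout rest. The sources used here do not name the altered part of Egln1, so these levels do not check the label. All intervals here are exact Poisson, conditional binomial or Clopper-Pearson intervals at 95%, and they cover counting error only. The libraries shared 22 barcodes, of which 18 were kept in both, and 3 wild type and 0 knockout members carried one. UMIs from chromosome 8, which holds Zfp42, Klf2 and Egln1, were a median of 7.45% of the total in wild type members and 7.16% in the rest, and 7.03% and 6.33% in the knockout. Cells in the lower of the 2 modes of that share were 5.86% of wild type members against 16.4% of the rest, and 26.3% of knockout members against 47.2% of the rest. The part of this chromosome 8 difference in the results below was not tested, and a value within cells of low share is given where it turns a direction.

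The score had no gap at the 5% mark. The lowest member had a score of 0.749 in the wild type and 0.738 in the knockout, and the highest cell outside had 0.749 and 0.738. Within 0.1 of that edge lay 160 wild type members (34.7%) and 93 knockout members (25.2%), with 285 and 170 cells just outside. The 10 lowest wild type members and the 10 highest cells outside overlapped in what they held: all 20 had Dppa5a, Zfp42 was seen in 7 and 6 of them, and Klf2 in 0 and 4. The members are a range of the score set by a percentage, and whether a separate group of cells lies within it was not tested. In the knockout the share of cells per score interval of 0.05 was 0.190% at 1.1 to 1.15 and 0.0813% at 1.15 to 1.2. It was 0.149% at 1.2 to 1.25, 0.190% at 1.6 to 1.65 and 0.135% at 1.65 to 1.7. These shares rest on few cells, and whether they depart from an even decline was not tested.

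**Figure D1:**
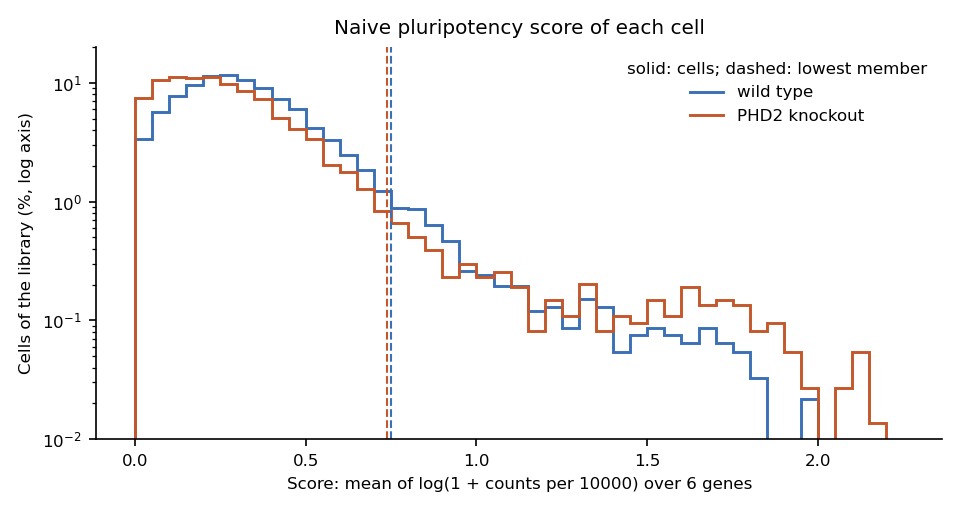
Share of the cells of each library (percent, log axis) in score intervals, for wild type and PHD2 knockout cells. Dashed lines mark the lowest member at 0.749 and 0.738. From a score of 1.5 to 2 the knockout line lies above the wild type line.

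The upper end of the range held a larger share of the knockout library. The median cell of the whole library scored 0.305 in the wild type and 0.243 in the knockout, yet a score of 1.5 or more was reached by 45 wild type cells (0.488%) and 90 knockout cells (1.22%). The median member scored 0.909 and 1.05, and the highest cell 1.996 and 2.18. One common edge for both libraries would take 470 wild type cells (5.09%) and 360 knockout cells (4.88%).

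Among the 6 scored genes, Dppa5a carried most of the UMIs. It stood at 4365 CPM in wild type members and 392 in the rest, and at 4610.2 in knockout members and 343 in the rest. Zfp42 was at 107, 16.1, 201 and 24.2 CPM in the same order, and Klf2 at 66.5, 6.03, 146 and 5.02 CPM. Both zinc finger genes stood higher in knockout than in wild type members, by 1.88-fold (1.75 to 2.02) and 2.19-fold (2.01 to 2.40). Members were chosen by these genes, so the 2 ratios describe the choice. Tdh was at 169, 36.5, 256 and 17.8 CPM. Spp1 was at 127, 30.8, 132 and 8.03 CPM. In the rest of the knockout library Tdh and Spp1 were 2.06-fold and 3.83-fold below the wild type rest, while in members they were at or above the wild type level. Members were chosen for high levels of both genes, so their levels in members describe the choice. Dppa3 was at 82.4, 1.37, 81.8 and 1.88 CPM, and it was concentrated in few cells: a Dppa3 UMI was seen in 22.1% of wild type and 29.3% of knockout members.

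The members seldom held the whole set. All 6 genes had a UMI in 17 wild type and 40 knockout members, and at least 4 of the 6 in 65.3% and 78.9%, against 9.84% and 3.74% of the rest. At 10000 UMIs per cell, these shares were 38.6% and 47.6% of members and 1.03% and 0.266% of the rest.

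Leaving each gene out of the score in turn and choosing 5% by the other 5 gives its level in cells it did not choose. Every left-out gene was higher in the chosen cells of both libraries, and for each the fold was larger in the knockout. Klf2 was 9.38-fold higher (8.54 to 10.3) in the wild type and 25.8-fold (23.7 to 28.1) in the knockout, and Zfp42 6.01-fold and 7.83-fold. Spp1 was 2.53-fold higher (2.36 to 2.70) in the wild type and 10.9-fold (10.0 to 11.8) in the knockout. Tdh was 3.65-fold and 11.3-fold higher, Dppa5a 6.76-fold and 10.98-fold, and Dppa3 3.94-fold and 6.58-fold. For Spp1 and Tdh the cells not chosen were also lower in the knockout. Spp1 was at 83.6 CPM in chosen and 33.1 in other wild type cells, and at 106 and 9.72 CPM in the knockout. Tdh was at 139 and 38.1 CPM in the wild type and 221 and 19.7 CPM in the knockout. Without Dppa5a only 63.1% of wild type and 80.8% of knockout members were chosen again, while each other gene could be left out with 84.4% to 95.4% kept.

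Over all genes, genes counted as measured if the higher group reached 10 CPM, and as higher or lower if the ratio was at least 1.5-fold. In the wild type 202 of 6133 measured genes (3.29%) were higher in members than in the rest and 181 (2.95%) were lower. In the knockout 398 of 6815 (5.84%) were higher and 558 (8.19%) lower. With the 6 scored genes left out, 161 genes were higher in both libraries, which is 82.1% of the 196 wild type calls and 41.1% of the 392 knockout calls, and 141 were lower in both (77.9% and 25.3%). Of the 161, 12 lay on the X chromosome (7.45%, against 3.32% of all genes measured) and 13 on chromosome 8 (8.07% against 6.37%).

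Apart from the scored genes, and with a floor of 30 CPM in the group with more, Mylpf had the highest log2 ratio in both libraries. Mylpf encodes a myosin light chain known from fast skeletal muscle (chromosome 7, 127208890 to 127214298). It was at 63.2 CPM in wild type members and 4.11 in the rest, and at 124 and 3.54 CPM in the knockout, a ratio of 15.4 (13.9 to 17.0) and 35.0 (31.7 to 38.8). Dnmt3l, the cofactor of de novo DNA methylation (chromosome 10, 78041947 to 78063622), was at 49.1 and 4.26 CPM in the wild type and 68.0 and 4.96 in the knockout. Trh, the thyrotropin-releasing hormone gene (chromosome 6, 92242061 to 92244650), was at 360.3 and 56.0 CPM and at 889 and 75.9 CPM. Members of both libraries were thus above the rest in genes without a known naive role as well as in pluripotency-linked ones. Ooep, an oocyte and stem cell gene, was at 50.9 and 7.66 CPM in the wild type and 49.9 and 4.36 in the knockout. Rhox5, an X-linked homeobox gene, was at 50.04 and 4.41 CPM in the wild type and 60.2 and 7.24 CPM in the knockout. Each of these genes was at least 5 times as high in members as in the rest of its library. Gpx2, whose promoter stretch is printed above, was at 36.4 and 4.72 CPM in the wild type and 52.2 and 4.44 CPM in the knockout. In the knockout the highest ratios also included Fam25c (34.9 against 0.784 CPM), the male germ cell gene Morc1 (36.3 against 0.913 CPM) and the autophagy receptor gene Calcoco2 (41.0 against 1.24 CPM). In wild type members these were at 18.0, 16.7 and 22.4 CPM.

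The label was checked against a list of 23 other naive pluripotency genes. In the wild type 8 were measured, of which 7 were higher in members and 0 lower, with a median log2 ratio of 1.25 (all measured genes -0.02). In the knockout 15 were measured, 11 of them higher in members and none lower, and the median was 2.12 (all measured genes -0.02). A gene that is low in the rest could be measured only by being high in members, so these counts describe the choice and support nothing. With no limit on level, all 23 were above the rest in wild type members and 21 in knockout members, many at a few CPM, the exceptions being Tbx3 and Stat3. The F-box gene Fbxo15 was at 34.0 and 5.18 CPM in wild type members and rest, and at 45.4 and 6.22 CPM in the knockout. Dppa2, a chromatin factor of stem cells, was at 57.3 and 13.5 CPM in the wild type and 65.5 and 14.3 CPM in the knockout. Fgf4, the autocrine growth factor of stem cells, was at 27.1 and 8.80 CPM and, in the knockout, at 22.3 and 2.63 CPM. These 3 genes were higher in members of both libraries. Transcription factors of the naive network were scarcer. Wild type and knockout members had Nr5a2 at 4.99 and 12.5 CPM, Tfcp2l1 at 4.54 and 15.4, Klf4 at 6.32 and 11.9, Nr0b1 at 6.05 and 9.74 and Esrrb at 3.92 and 8.72 CPM. At 10000 UMIs per cell, Esrrb was seen in 3.33% of wild type and 8.31% of knockout members (0.247% and 0.547% of the rest), so most members had no detectable UMI of it at this depth. The shares at full depth were 7.38% and 17.3% of members against 0.639% and 1.23% of the rest. The cells are therefore called here by their rule, as members of high naive score.

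General pluripotency genes split. Pou5f1, which encodes Oct4, was at 134 CPM in wild type members and 143 in the rest, and at 132 and 111 CPM in the knockout. Sox2 (chromosome 3, 34650405 to 34652461) was at 88.2 and 36.2 CPM in the wild type and 135 and 18.3 in the knockout, 2.44-fold (2.28 to 2.60) and 7.37-fold (6.90 to 7.86) higher in members. Nanog was at 51.2 and 33.8 CPM in the wild type and 57.5 and 44.5 CPM in the knockout. So Sox2 followed the score in both libraries, and Pou5f1 stayed under 1.5-fold in both. Of the 12 genes of the list, 5 were higher in wild type members and 7 in knockout members, with 0 lower in either. Over all measured genes 3.29% and 5.84% were higher. Utf1, a chromatin-bound factor of stem cells, was at 457 and 423 CPM in the wild type and 314 and 88.4 in the knockout. Gdf3, a TGF-beta family ligand, was at 92.3 and 32.8 CPM in the wild type and 70.8 and 6.15 CPM in the knockout.

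Ranking the cells by score and summing UMIs in 6 rank ranges shows where along the range each gene was found. Nr0b1 was at 0.0857 CPM in the lower 50% of wild type cells, 1.11 CPM at 95 to 97%, 3.13 at 97 to 99% and 21.8 in the top 1%. In the knockout these values were 0.0725, 0.796, 9.28 and 28.6 CPM. For Nr0b1, an orphan nuclear receptor gene, the top 1% (92 wild type and 74 knockout cells) held 49 of the 68 UMIs of wild type members and 54 of the 96 of knockout members. The range of 97 to 99% held 14 in the wild type and 39 in the knockout. Esrrb, another nuclear receptor gene, was at 1.33, 2.68 and 11.6 CPM over the last 3 ranges in the wild type, and at 2.92, 7.85 and 22.3 CPM in the knockout. Mylpf was at 12.9, 52.1 and 187 CPM and at 19.9, 125 and 329 CPM. Nanog did not follow the score below the top: it was at 36.0 CPM in the lower 50%, 37.7 at 95 to 97% and 89.0 in the top 1% of the wild type, and at 46.0, 32.1 and 112 CPM in the knockout. Other genes had reached their level earlier. Trh was at 236, 440.5 and 450.0 CPM in the wild type and highest at 97 to 99% in the knockout, with 854, 1021 and 665 CPM. Dppa3, although scored, was at 109.7 CPM at 97 to 99% and 97.9 in the top 1% of the wild type, and at 124 and 60.5 CPM in the knockout. Pou5f1 was at 143 CPM in the lower 50% and 123 in the top 1% of the wild type, and at 102 and 119.9 CPM in the knockout.

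**Figure D2:**
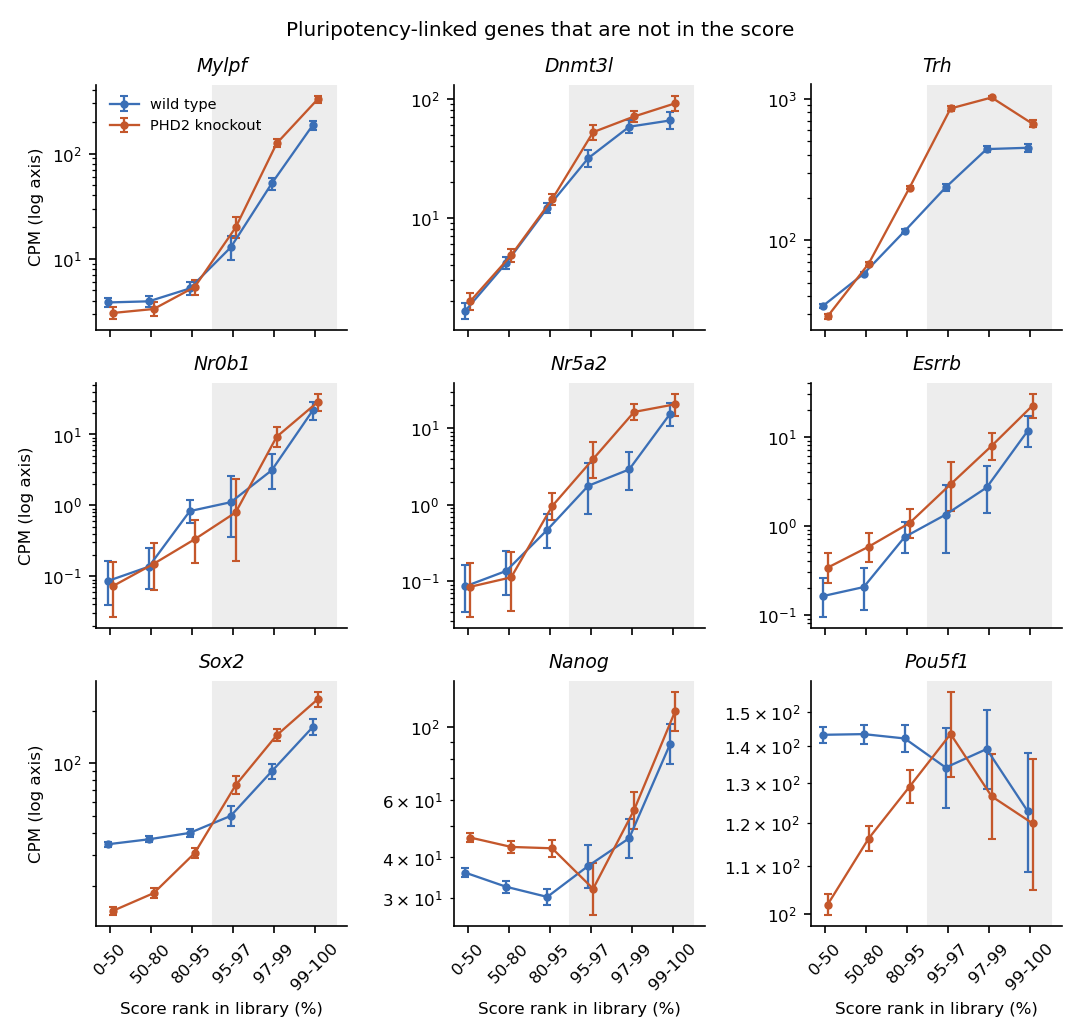
Summed level (CPM, log axis) of 9 genes that are not in the score, by score rank range within each library, with 95% counting intervals; members lie in the shaded ranges. Nr0b1 climbs to 21.8 and 28.6 CPM in the top 1%, while Pou5f1 stays between 102 and 144 CPM in all ranges.

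Contractile and cytoskeletal genes were lower in members of both libraries. Over all measured genes 2.95% were lower in wild type members and 8.19% in knockout members, and the median log2 ratio was -0.02 in both. Of 15 measured genes of the actin-contractile and SRF or YAP target list 8 were lower in wild type members and 0 higher. Their median log2 ratio was -0.66. Of 14 in the knockout 8 were lower and 1, Ctgf, was higher, with a median of -0.74. Tagln (chromosome 9, 45929619 to 45936058), the gene of the actin-binding protein transgelin, stood at 362 CPM in wild type members and 807 in the rest, and at 178 and 424 CPM in the knockout. Tpm1, a tropomyosin gene, was at 309 and 597 CPM in the wild type and 205 and 430.1 CPM in the knockout. Tagln was 2.23-fold lower (2.16 to 2.297) in the wild type and 2.38-fold lower (2.27 to 2.49) in the knockout, so the intervals of the 2 libraries overlap. Nes, the intermediate filament gene nestin, had the lowest log2 ratio of the wild type among genes of at least 30 CPM, at 21.5 and 52.9 CPM. The tight junction gene Cldn7 was at 107 and 204 CPM in the wild type and 62.8 and 126 in the knockout. Of 10 genes of simple keratins and epithelial adhesion 4 were lower in the wild type and 5 in the knockout, with 0 higher. Krt18, a simple keratin gene, was at 159.8 and 202 CPM in the wild type and 135 and 292 CPM in the knockout. Immediate-early genes known to respond to dissociation were also lower, 3 of 7 in the wild type and 4 of 7 in the knockout, among them Jun (21.5 and 41.8 CPM, and 25.4 and 47.4 CPM) and Atf3 (13.9 and 28.1 CPM, and 12.8 and 24.6 CPM).

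In the knockout, genes of the primitive streak and nascent mesoderm were among those with the lowest ratios of members to the rest. Over all measured genes of the knockout 8.19% were lower in members, with a median log2 ratio of -0.02. Of 13 measured streak genes 10 were lower in knockout members and 0 higher, with a median log2 ratio of -1.67. A streak or mesoderm gene low in members could be measured only by being high in the rest, so such counts support nothing by themselves. With no limit on level, 14 of the 15 streak genes were below the rest in knockout members and 1 above, by any amount. Mesp1 (chromosome 7, 79792241 to 79793788), which acts as mesoderm first forms, stood at 30.8 CPM in knockout members and 232 in the rest, 7.53-fold lower (6.73 to 8.46). T (chromosome 17, 8434423 to 8442496) was at 87.4 and 338 CPM, 3.87-fold lower (3.62 to 4.14), and Mixl1, a streak homeobox gene, at 11.2 and 79.1 CPM, 7.09-fold lower (5.88 to 8.63). Among the 10 streak genes that were lower the folds ranged from 1.95-fold (1.76 to 2.16) for the Wnt target Sp5 to that of Mixl1, with intervals that do not overlap. Mesp1 belongs to the nascent mesoderm list, of which 5 of 6 measured genes were lower in knockout members and 0 higher, with a median of -1.66. In the wild type 2 of its genes were measured, and 1, the Nodal inhibitor gene Lefty2, was higher in members (13.9 and 7.75 CPM). Nodal, the ligand that starts mesendoderm formation, was not lower, nor were Axin2 (22.7 and 29.9 CPM) and Fgf17 (9.33 and 10.2 CPM) by 1.5-fold: Nodal was at 90.8 CPM in knockout members and 65.9 in the rest, and at 86.8 and 59.8 CPM in the wild type. In the wild type 5 streak genes were measured, of which Eomes (7.75 and 12.2 CPM), Fgf8 (22.3 and 39.9 CPM) and Wnt3 (5.97 and 12.5 CPM) were lower in members. Eomes and Wnt3 reached 10 CPM only in the rest. With no limit on level, 11 of the 15 streak genes were below the rest in wild type members and 4 above, by any amount. Psmb8, an immunoproteasome subunit gene, was at 14.9 and 69.2 CPM in the knockout but at 18.1 and 15.1 CPM in the wild type.

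Along the score ranges of the knockout T was lower in each higher range, from 355 CPM in the lower 50% to 109 at 95 to 97%, 92.3 at 97 to 99% and 33.9 in the top 1%, which is 9.58% (7.37 to 12.2) of the level in the lower 50%. Mesp1 was at 315, 32.6, 37.8 and 11.7 CPM in the same ranges. Fgf8 was at 202, 74.3, 26.9 and 14.9 CPM. The 3 genes did not follow one course: Mesp1 was already at 62.2 CPM at 80 to 95%, where T was at 269 and Fgf8 at 133 CPM. In the wild type the formative gene Pou3f1 was at 99.6 CPM in the lower 50%, 76.7 at 95 to 97%, 60.8 at 97 to 99% and 18.7 in the top 1%. Tagln was at 907, 493, 357 and 110.4 CPM in the wild type and 438, 294, 133 and 48.3 CPM in the knockout.

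**Figure D3:**
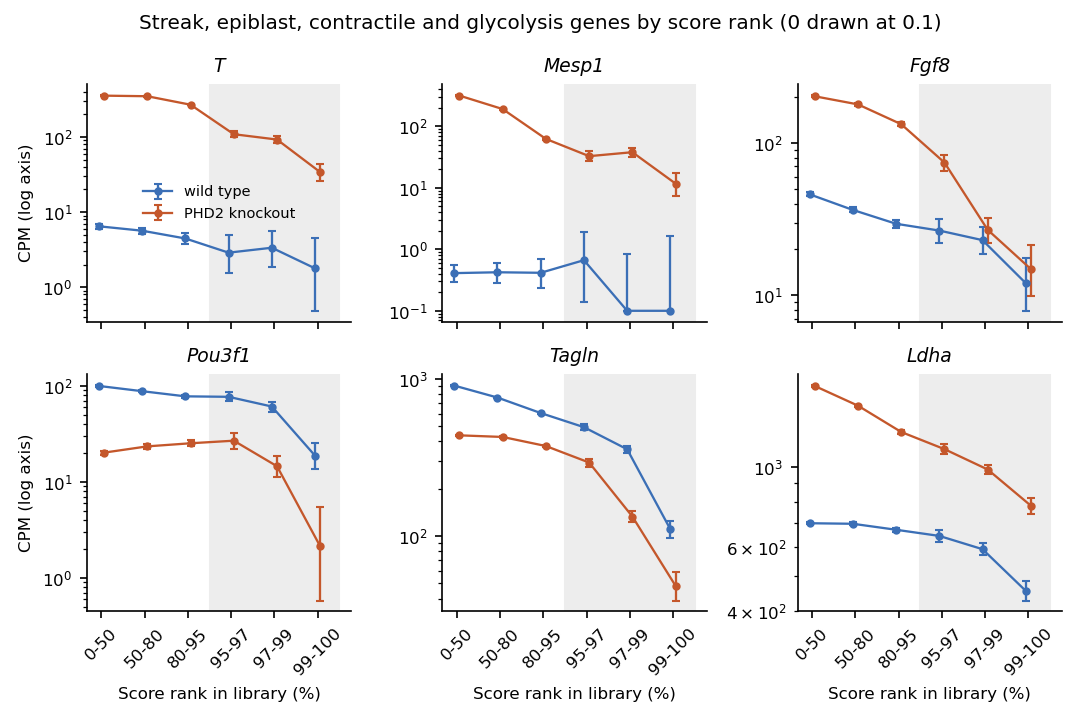
Summed level (CPM, log axis) of 6 genes by score rank range, with 95% counting intervals and members in the shaded ranges; a level of 0 is drawn at 0.1. T in the knockout goes from 355 to 33.9 CPM, Pou3f1 in the wild type from 99.6 to 18.7 CPM, and Ldha lies higher in the knockout in every range.

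Formative and primed epiblast genes did not move as one group. Of 11 measured in the wild type 2 were lower in members, Pou3f1 (58.8 and 91.8 CPM) and Fgf5 (6.50 and 10.3 CPM), and 0 were higher. Fgf5 reached 10 CPM only in the rest, so it could be measured only by being high there. Of 12 in the knockout 4 were lower and 1, the FGF-responsive Etv5, was higher (42.8 and 22.4 CPM). Over all measured genes 2.95% were lower in wild type members and 8.19% in knockout members. Otx2, a formative homeobox gene, was at 23.6 and 19.0 CPM in the wild type and 24.0 and 16.1 in the knockout. As medians over cells, the mean log value of the 16 formative genes was 0.157 in wild type members and 0.199 in the rest, and 0.149 and 0.194 in the knockout. For the 15 streak genes these medians were 0.0671 and 0.0796 in the wild type and 0.126 and 0.365 in the knockout.

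Markers of other cell types that such cultures can hold were mostly at low levels in members, with exceptions. None of the 11 feeder fibroblast genes was measured, their summed level was 4.99 CPM in wild type and 7.71 in knockout members (6.26 and 15.5 in the rest), and Postn was at 0 in both. Of 8 definitive endoderm genes 1, Trh, was measured, and Foxa2 and Cxcr4 were at 0 in wild type members. Among 15 genes of primitive and visceral endoderm 3 were measured, Apoe, Lamb1 and Rhox5, while Sox7 and Ttr were at 0 in members of both libraries. Apoe, an apolipoprotein gene, was at 835 CPM in wild type members and 635 in the rest, and at 842 and 549 CPM in the knockout. Of 8 haemato-endothelial genes the factor gene Etv2 was measured, at 13.2 and 10.9 CPM in the wild type and 14.6 and 52.2 in the knockout. At 10000 UMIs per cell no UMI of the blood gene Hbb-bh1 was found in 451 wild type and 361 knockout members. At 3 counts this allows a UMI in up to 0.665% and 0.831% of such cells, and it sets no limit on cells that express the gene. Of 8 neuroectoderm genes Nes and the tubulin gene Tubb3 were measured in the wild type, Zic1 was at 0 in wild type members and Sox1 in knockout members. Of 10 trophoblast genes Elf5 was at 0 in wild type members, and the list sum of 172 CPM in wild type and 265 in knockout members (208 and 500.3 in the rest) lay mostly in Krt8, at 118 and 137 CPM. Of 11 germ cell genes Dazl, an RNA-binding protein gene, was at 7.75 and 1.61 CPM in wild type members and rest, and at 10.8 and 1.35 CPM in the knockout. The summed germ cell list was at 59.8 and 22.5 CPM in the wild type and 77.7 and 45.2 CPM in the knockout. The part of such cells in the results was not tested.

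Cells with genes of the 2-cell-like state were rare, and their share was higher in members. Cells with at least 3 UMIs of the Zscan4 family, which protects telomeres in stem cells, were 7 of 461 wild type members (1.52%, 0.613 to 3.10) and 39 of 8766 other cells (0.445%, 0.317 to 0.608). In the knockout they were 6 of 369 members (1.63%, 0.599 to 3.51) and 22 of 7014 other cells (0.314%, 0.197 to 0.475). At 10000 UMIs per cell any Zscan4 UMI was found in 2.88% of wild type members and 0.787% of the rest, and in 1.66% and 0.488% in the knockout, and at full depth in 3.69% and 1.27%, and 2.71% and 1.01%.

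Nearly all cell cycle and respiratory genes lay under 1.5-fold between members and the rest, with small shifts in some lists. Of 20 G2 and M phase genes 0 passed 1.5-fold in either library, with medians of 0.06 and 0.04. Of the S phase genes 0 of 19 passed in the wild type and 1 of 20, Ung, in the knockout (45.04 and 24.6 CPM). The S phase median was 0.03 in the wild type, with 11 of 20 genes above the rest, and 0.19 in the knockout, with 18 of 20. All 27 nuclear oxidative phosphorylation genes and the 12 measured mitochondrially encoded genes lay under 1.5-fold in both libraries. The mitochondrially encoded median was 0.09 in the wild type, with 12 of 13 genes above the rest, and -0.03 in the knockout, with 5 of 13. Over all measured genes 3.29% were higher in wild type members and 5.84% in knockout members. Of 16 genes of threonine, glycine and folate metabolism, the pathway that Tdh feeds, 0 were higher in wild type members and 4 in knockout members. Those were Gcat, which follows Tdh in threonine breakdown (79.5 and 48.3 CPM), Gldc of the glycine cleavage system (39.7 and 22.2 CPM), Shmt1 (54.2 and 33.8 CPM) and the amino acid transporter gene Slc7a3 (39.9 and 24.9 CPM). In the wild type Gcat was at 79.1 and 70.9 CPM. Among DNA methylation and demethylation genes Dnmt3l and Tet1 (37.5 and 20.5 CPM, and 46.4 and 20.98 CPM) were higher in members of both libraries, and Dnmt1, Uhrf1, Dnmt3a, Dnmt3b and Tdg lay under 1.5-fold.

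The genes whose value followed the score most closely over single cells were found by Spearman correlation within each library, over 9227 and 7383 cells and 9118 genes. Apart from the scored genes the highest mean of both libraries was 0.397 for Mkrn1, a makorin ring finger gene, followed by the metallothionein gene Mt1 (0.366), Triml2 (0.354), Dppa2 (0.354), Mt2 (0.352), Dppa4 (0.333), Dnmt3l (0.310), Gdf3 (0.305), Triml1 (0.294) and Trh (0.271). The median over all genes compared was 0.015. Cells share depth and library, so these values describe order only, and no p is given. Mkrn1 was at 616 CPM in wild type members and 405 in the rest, and at 685 and 249 CPM in the knockout. Mt1 was at 5540.3 and 2725 CPM in the wild type and 5600.0 and 1875 CPM in the knockout.

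Knockout members were then compared with wild type members. Of 6445 measured genes 492 were at least 1.5-fold higher in knockout members (7.63%) and 66 lower (1.02%), and the median log2 ratio of all genes was 0.13. With median-of-ratios size factors, which move that median to -0.01, the counts were 231 higher and 148 lower, so the split of calls depends on the scaling. Between the rests of the libraries 673 of 6570 genes were higher (10.2%) and 147 lower (2.24%). Of those 673 genes 496 were measured in members, and 222 (44.8%) were higher there too. The 496 had a median log2 ratio of 0.75 in the rest and 0.51 in members. These genes were chosen by their ratio in the rest, so a smaller ratio in members could follow from that choice. Of the 492 genes higher in knockout members, 270 were not called higher in the rest.

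The highest ratios between members were again those of streak and nascent mesoderm genes, and T and Mesp1 were lower in knockout members than in the knockout rest. T was at 2.85 CPM in wild type and 87.4 in knockout members, a ratio of 30.7 (21.6 to 45.2), while in the rest the ratio was 57.8 (54.7 to 61.2). Mesp1 was at 0.267 CPM from 3 UMIs in wild type members and 30.8 in knockout members, a ratio of 115 (39.1 to 563), against 559 (454 to 697) in the rest. Of 9 measured streak genes 8 were higher in knockout members, with a median log2 ratio of 1.43 (1.29 with median-of-ratios size factors), and Nodal lay between (86.8 and 90.8 CPM). Over all measured genes 7.63% were higher in members and 10.2% in the rest. In the rest 11 of 13 measured streak genes were higher, with a median of 2.69, so the 2 medians are over different sets of genes. A streak gene low in the wild type could be measured in these counts only by being high in the knockout. With no limit on level, 14 of the 15 were higher in knockout than in wild type members and 1 lower, by any amount. Fst, the activin inhibitor follistatin, was at 27.0 and 74.3 CPM, 2.75-fold higher (2.40 to 3.16), against 7.11-fold (6.93 to 7.29) in the rest. Fgf8 was 1.92-fold higher (1.64 to 2.25), and this direction turned at the top, since in the 2% of cells with the highest score its log2 ratio was -0.057. Upp1, a uridine phosphorylase gene, was at 14.2 and 64.8 CPM, 4.55-fold higher (3.82 to 5.45), against 14.4-fold (13.8 to 15.0) in the rest. Ifitm1, an interferon-induced transmembrane gene, was at 206 CPM in wild type and 349 in knockout members, 1.69-fold higher (1.61 to 1.79), against 11.6-fold in the rest (40.9 and 474 CPM). Ifitm1 was 5.03-fold higher in wild type members than in the wild type rest and 1.36-fold lower in knockout members than in the knockout rest.

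At 10000 UMIs per cell T was seen in 2.88% of wild type members (1.54 to 4.88) and 43.2% of knockout members (38.0 to 48.5), against 4.83% and 79.1% of the rest. At full depth the shares were 4.99%, 61.5%, 10.6% and 88.2%. Mesp1 was seen in 0.443% of wild type and 16.1% of knockout members, against 0.387% and 30.6% of the rest (0.651%, 31.4%, 0.833% and 41.2% at full depth). Both genes were thus seen in knockout members, at a lower share than in the rest of that library. No cell class of the knockout library is known to lack T, so the share that free RNA gives there was not measured, and its part was not tested.

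Several HIF targets and glycolysis genes were higher in knockout than in wild type members. Of 11 measured HIF targets 6 were higher in knockout members and 1, Stc2, was lower (10.3 and 6.29 CPM). Their median log2 ratio was 0.70 (0.56 with median-of-ratios size factors). In the rest 4 of 10 were higher with a median of 0.51, so the 2 medians are over different sets of genes. Over all measured genes 7.63% were higher in knockout members, with a median of 0.13. A target low in wild type members could be measured there only by being high in knockout members, so the count supports nothing by itself. With no limit on level, 15 of the 21 targets were higher in knockout members and 6 lower, by any amount. Pdk1, a kinase that closes off pyruvate entry to the mitochondrion, was at 21.1 CPM in wild type members, 9.22 in the wild type rest, 34.9 in knockout members and 13.5 in the knockout rest. Kdm3a, an oxygen-dependent histone demethylase gene, was at 10.2, 4.57, 20.2 and 9.60 CPM in that order. Slc2a3, which encodes the glucose transporter GLUT3, was at 44.1, 29.0, 72.9 and 26.3 CPM. All 3 were higher in members than in the rest of both libraries and higher in knockout than in wild type members. The list as a whole was not higher in members than in the rest. In each library 3 of 11 measured targets were higher in members and 1 lower, with medians of 0.19 in the wild type and -0.18 in the knockout. For Slc2a3 the knockout was 1.65-fold higher (1.47 to 1.86) in members and 1.11-fold lower (1.06 to 1.15) in the rest. Ddit4, an mTORC1 inhibitor gene, was 1.89-fold higher in knockout members (21.1 and 40.0 CPM) and 3.08-fold in the rest, and the mitophagy receptor gene Bnip3 1.75-fold (10.9 and 19.0 CPM) and 2.80-fold. Within cells of low chromosome 8 share, of which only 27 were wild type members, the HIF target median was -0.043. Of 13 measured glycolysis genes 5 were higher in knockout members and 0 lower, with a median of 0.47 (0.33 with median-of-ratios size factors; 0.54 in the rest). Ldha, the lactate dehydrogenase gene, was at 586, 693, 995 and 1534 CPM, and the phosphofructokinase gene Pfkp at 9.35, 5.02, 23.1 and 10.8 CPM. Between members Pfkp reached 10 CPM only in the knockout, so it could be measured only by being high there. With no limit on level, 15 of the 16 glycolysis genes were higher in knockout members and 1 lower, by any amount. Gapdh was at 4194, 4403, 4240.3 and 4368 CPM.

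**Figure D4:**
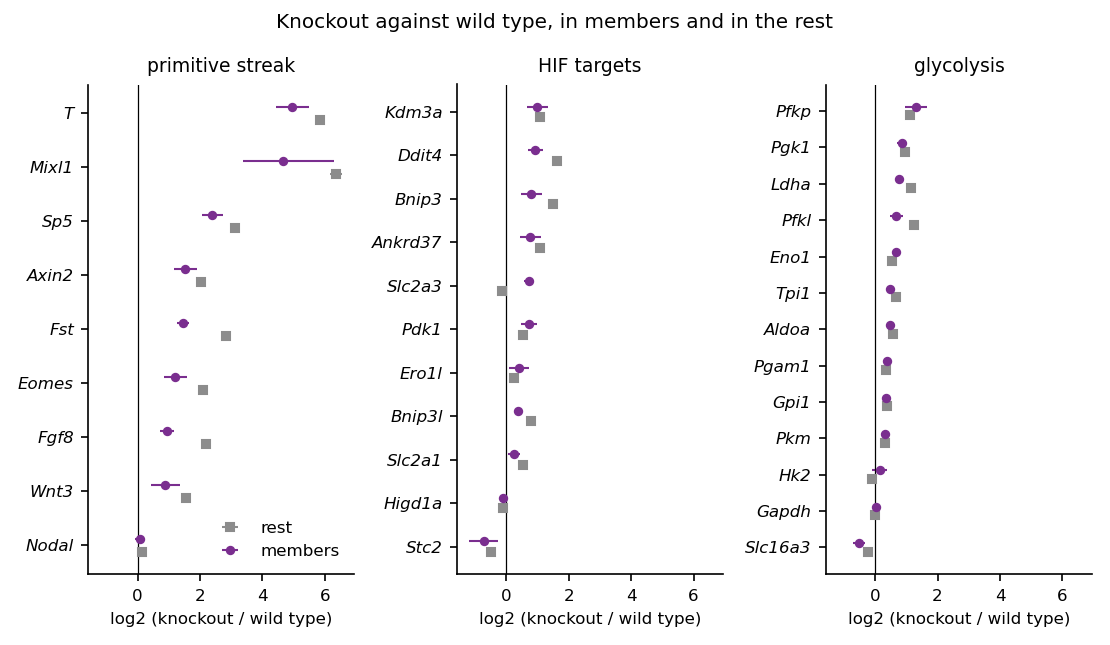
log2 ratio of knockout over wild type levels in members (circles) and in the rest (squares) for the genes of 3 lists that reached 10 CPM in members, with 95% counting intervals. All 9 streak genes sit lower in members than in the rest, and Slc2a3 lies at 1.65-fold in members and below 0 in the rest.

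Among general pluripotency genes, Sox2 was 1.53-fold higher in knockout than in wild type members (1.41 to 1.66) and 1.98-fold lower in the knockout rest than in the wild type rest (1.90 to 2.07). Gdf3 was 1.30-fold lower in members and 5.34-fold lower in the rest, and Utf1 1.46-fold and 4.78-fold lower. Of 15 measured other naive genes 6 were higher in knockout members and 0 lower, with a median log2 ratio of 0.37 (0.25 with median-of-ratios size factors), and the median was -0.032 among members with a score below 1. A gene low in wild type members could be measured here only by being high in knockout members, so this count and median support nothing. With no limit on level, 21 of the 23 genes were higher in knockout members and 2 lower, by any amount. The rest had 2 of 7 measured naive genes higher and 1 lower in the knockout (median 0.25). Trh was 2.47-fold higher in knockout members (2.38 to 2.56) and 1.36-fold in the rest. Because more knockout members lay at the top of the range, the members were also compared in 2 classes of score. Among members with a score of 1 or more (172 wild type and 201 knockout cells) Sox2 stood at 138 and 181 CPM, Mylpf at 133 and 205 and Trh at 506 and 914 CPM. Among those below 1 (289 and 168 cells) Sox2 was at 58.9 and 75.6 CPM, Mylpf at 22.0 and 19.5 and Trh at 274 and 857 CPM. So Trh was more than 1.5-fold higher in knockout members of both classes, and Mylpf was higher only in the upper one. Sox2 was higher in both classes by less than 1.5-fold. Fam25c too was lower in the knockout below a score of 1, with a log2 ratio of -0.73. The 2 classes do not match the libraries in score. In the upper class 45 of the 172 wild type cells and 90 of the 201 knockout cells reached 1.5, and the part of this was not tested.

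Among genes of at least 30 CPM Pou3f1, a formative POU factor gene, had the lowest ratio, at 58.8 CPM in wild type and 16.8 in knockout members, 3.49-fold lower (2.94 to 4.16), and 4.17-fold lower in the rest. Over all measured genes 1.02% were lower in knockout members, with a median of 0.13. Of 15 contractile genes 6 were lower in knockout members and 0 higher, with a median of -0.52. Among the 6 were Tagln (362 and 178 CPM) and the smooth muscle actin gene Acta2 (13.4 and 1.52 CPM). Another was Myl9, a myosin light chain gene (62.1 and 23.2 CPM). The folate receptor gene Folr1 was lower in knockout members (32.5 and 16.4 CPM) although it was higher in members than in the rest of both libraries (13.2 and 2.71 CPM in the rests).

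The members of a library differed among themselves in which of the 6 genes they held. Since the score adds the genes, a cell with much of one gene needs less of the others, and part of what follows is fixed by the rule. Wild type members with a Dppa3 UMI (102 cells) had Spp1 at 76.1 CPM and those without (359 cells) at 142 CPM, and in the knockout (108 and 261 cells) Spp1 was at 70.8 and 158 CPM. Outside the score, Fthl17c, an X-linked ferritin-like gene, was at 75.3 CPM with and 29.5 without Dppa3 in the wild type and at 74.2 and 19.8 CPM in the knockout. Rhox5 was at 139 and 23.6 CPM in the wild type. Members with a Klf2 UMI (239 of 461 wild type and 257 of 369 knockout cells) had Mylpf at 88.8 CPM against 32.0 without in the wild type, and at 159 against 32.0 in the knockout. Calcoco2 was at 33.4 CPM with and 9.09 without Klf2 in the wild type, and at 51.6 and 13.2 CPM in the knockout. Krt18 was lower with Klf2 in the wild type, at 88.3 against 247 CPM. These genes also followed the score itself. From the lowest to the highest score rank range of the wild type, Mylpf went from 3.85 to 187 CPM and Krt18 from 219 to 32.1 CPM. Klf2 and Dppa3 are scored genes, and the scores of members with and without them are not given here. The part of score rank in these splits was not tested. Median depth was 21896 UMIs with and 20553 without Klf2 in the wild type and 25630 and 23815 in the knockout, and the part of depth was not tested.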

How the data were processed

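The authors deposited 1 matrix of whole-number UMI counts per library, per the file headers the output of Cell Ranger 4.0.0. Cell Ranger, Seurat and mm10 are named, without a role, per the submitters' processing notes. The counts are not normalized. The libraries held 9651 and 7713 barcodes and 226179474 and 173470962 UMIs.

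UMIs were summed over members and over the rest and scaled to CPM. Log2 ratios used a pseudocount of 1 CPM, which understates low genes. Calls used 10 CPM and 1.5-fold. Shares used cells randomly reduced to 10000 UMIs each; this dropped 10 wild type and 8 knockout members with fewer UMIs, and 248 and 250 other cells. Scrublet (scanpy 1.11.5) marked 0 cells, which is not a working call, so doublets remain, and removal of the highest scores was an alternative. Calls and intervals were tested on simulated Poisson counts, which hold no variation between cells. The intervals assume the same, so this checked the computation only. numpy 2.4.6, scipy 1.17.1 and pandas 2.3.3 were used. Symbols were matched to GENCODE M21 (mm10) for 27722 of 27998 features.

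Members, gene lists and alternatives were chosen with earlier results of these data known. Named genes were the 12 highest and 12 lowest of at least 30 CPM in each comparison, list members and the genes most like the score. Other genes were chosen after their values were seen. Of the 381 list genes 4 were not found.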

Additional observations from a re-analysis of the deposited data

Results flagged for a closer look

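Genes at least 1.5-fold higher in members than in the rest of one library and at least 1.5-fold lower in the other were looked for over all genes measured. There were 3, all higher in wild type and lower in knockout members, and none in the opposite direction. Each difference between the libraries was not tested, since each group is 1 library. Lgals3, which encodes galectin-3, had a log2 ratio of 0.58 in the wild type (35.7 and 23.6 CPM) and -0.87 in the knockout (54.0 and 99.7 CPM). Ifi35, an interferon-induced gene, had 0.94 (12.3 and 5.90 CPM) and -0.62 (11.3 and 17.8 CPM). Dnd1, an RNA-binding protein gene of germ cells, had 0.91 (14.0 and 6.97 CPM) and -0.82 (15.4 and 27.9 CPM). In all 3 genes members of both libraries were nearer to each other than the rests were.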

How the results depend on the processing

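Each of 305 results was recomputed under up to 23 alternatives, 21 listed earlier and 2 (members with a score below 1, or of 1 or more) added after seeing the data. Of 6984 values 5872 stayed within the limits set, 1105 moved and 7 turned direction, counted only where the reported value was at least 1.5-fold. Below that limit another sign was found for 84 values of 30 list medians and 156 values of 46 genes, among them the knockout over wild type median of other naive genes in members (0.37), which was -0.032 for scores below 1. The count higher in wild type members (202) was 348 for the top 2%, 121 for the top 10%, 355 at 5 CPM, 48 at 50 CPM, 765 in cells of low chromosome 8 share (27 members) and 381 for scores of 1 or more. The count lower (181) was 439, 66, 322, 46, 789 and 461 under the same settings, 38 without Dppa5a in the score and 82 for scores below 1. In the knockout the count higher (398) was 619 at 5 CPM and 93 at 50 CPM, and the count lower (558) was 1070 for the top 2%, 284 for the top 10%, 861 at 5 CPM, 129 at 50 CPM and 849 for scores of 1 or more. Between members the count higher (492) was 231 with size factors, 895 at 5 CPM, 69 at 50 CPM and 1352 in cells of low chromosome 8 share, and the count lower (66) was 148, 117, 19 and 545, and 179 for the top 2%. The contractile median moved to -0.99 for the top 2% and -1.04 for scores of 1 or more in the wild type and to -1.30 for the top 2% in the knockout, and the knockout median of other naive genes to 2.70 and 2.71. Directions turned between members for HIF targets (-0.043), Krt19 (-0.30) and Egln3 (-0.13) at low chromosome 8 share, Fgf8 (-0.057) for the top 2%, and Mylpf (-0.16) and Fam25c (-0.73) for scores below 1. In knockout members against the rest, the primitive and visceral endoderm median was -0.30 at 5 CPM, where more genes are measured. The cause was not tested for the others. Counts at other expression limits differ because other numbers of genes are measured. No paired analysis was possible because each group is 1 library.

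With 1 library per group, and 461 and 369 members, genes under about 10 CPM rest on few UMIs, and a difference between the libraries cannot be told apart from one between cultures, clones or library preparations.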
